A study of Arabidopsis thaliana with 12 samples.

Results

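The 8 genes described are class IV homeodomain-leucine zipper factors (HD-ZIP IV), measured in roots of Arabidopsis thaliana exposed to arsenate. They were chosen by locus: GL2 (AT1G79840), ANL2 (AT4G00730), HDG1 (AT3G61150), HDG2 (AT1G05230), HDG11 (AT1G73360), HDG12 (AT1G17920), PDF2 (AT4G04890) and ATML1 (AT4G21750). They are 8 of the 16 genes of the family and 8 of the 33557 genes measured. The tested groups were Col-0 roots given 30 µM As(V), which is arsenate, an ion that resembles phosphate, for 1.5, 6 or 24 h, and the matched mock groups were Col-0 roots kept in the same phosphate-free liquid medium without As(V) for the same times. All plants had spent 7 days on 1 mM phosphate and then 2 days on plates without phosphate, so every group, mock included, was deprived of phosphate. Each of the 6 groups had 2 libraries of stranded messenger RNA (mRNA), and each library came from 60 seedlings. Nothing in the labels says that replicates were separate cultures, so p-values measure only the spread between these samples.

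HD-ZIP IV proteins join a DNA-binding homeodomain to a leucine zipper and a START domain, a lipid-binding fold, and most of them act in the epidermis and its derivatives. In the root epidermis GL2 is expressed in the non-hair cell files, where it represses the bHLH factors that start hair growth. In shoots ATML1 and PDF2 specify the outermost cell layer, the L1, and the family's factors are known to bind a short element there, the L1 box.

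The family's coding sequences fall into pairs. PDF2 and ATML1 shared 83.4% of aligned coding bases, HDG11 and HDG12 shared 78.9%, and ANL2 and HDG1 shared 67.3%, each the closest match of its partner among the 16 genes. GL2 had no close partner, with 52.2% for its best match, HDG2. On TAIR10.1 the genes lie at chr1:30036956-30041440 (GL2, plus strand), chr4:299261-304612 (ANL2, minus), chr3:22630331-22635155 (HDG1, plus) and chr1:1512896-1518900 (HDG2, minus). The others lie at chr1:27578421-27582685 (HDG11, minus), chr1:6161870-6165820 (HDG12, minus), chr4:2476390-2482447 (PDF2, minus) and chr4:11555039-11560771 (ATML1, plus). None of the windows of 50 exon bases of the 8 genes occurred elsewhere in the genome. Of the genes that overlap GL2 in the RefSeq annotation, AT1G09927 lies on the same strand and shares 155 exon bases (4.8% of those of GL2), and AT1G79850 lies on the opposite strand and shares 198. AT1G79850 was measured, at 7.922 to 32.446 FPKM. If counting ignored strand, reads of the shared bases could have been assigned to either gene or left out, depending on the counting rule. HDG2 and HDG12 are overlapped by the antisense genes AT1G04353 and AT1G05357 over 1082 and 280 exon bases. These antisense genes and AT1G09927 are not among the genes measured. Reads of the antisense genes could have been counted to HDG2 and HDG12 if strand was ignored.

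The L1 box was searched in the 250 bases before each annotated gene start (RefSeq, TAIR10.1), as TAAATGCA or TAAATGTA on both strands. It was present in 2 of the 8 genes, ANL2 and HDG2, against 4.52% of 26682 promoters of the same length. The stretches around both matches are printed because ANL2 is the member with the highest level and HDG2 the one with the lowest in most groups. Each is read along its gene, with the box in capitals. The ANL2 stretch is chr4:304636-304693 on the minus strand, with the box in reverse orientation and beginning 56 bases before the gene start. The HDG2 stretch is chr1:1518975-1519032 on the minus strand, with the box in forward orientation and beginning 107 bases before the start.
ANL2: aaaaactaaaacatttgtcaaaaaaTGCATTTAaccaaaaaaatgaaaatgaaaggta
HDG2: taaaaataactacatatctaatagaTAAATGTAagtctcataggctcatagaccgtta
Among the other HD-ZIP IV genes 1 of 8, HDG10, had a box in this window. The search covers these letters and this window only: PDF1, a gene of the L1 layer known for its L1 box, had neither spelling in it. With TAAATGTA alone the count was 1 of the 8 members, against 2.99% of promoters.

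Levels are given in FPKM, read counts scaled to gene length and library size, as deposited. Fitted log2 fold changes are of FPKM + 1, so for low genes they are smaller than the ratios of the levels printed beside them. The libraries held an estimated 12.59 to 15.65 M reads in genes. The deposited scaling did not follow those reads. Relative to the reads, the library size behind the scaling was 0.640 and 0.656 in As(V) at 1.5 h, 0.445 and 0.460 in As(V) at 6 h, 1.124 and 1.062 in As(V) at 24 h, and 0.996 to 1.051 in mock libraries. The same number of reads therefore gave a higher FPKM value in As(V) than in mock at 1.5 and 6 h. Each fitted change was computed again with reads in genes as the scale, called library totals below. On that scale all genes in As(V) had a median log2 change of -0.62 (1.5 h), -1.08 (6 h) and 0.03 (24 h), against -0.09, -0.12 and -0.06 as deposited. Summed levels are given as deposited only. Which scale tracks RNA per cell was not tested.

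The tissue label was checked on markers. All 5 root hair genes were above 0, and their summed level was 203.46 to 214.86 FPKM in As(V) and 800.53 to 983.03 FPKM in mock at 1.5 h. At 6 h it was 76.51 to 107.88 FPKM in As(V) and 833.77 to 920.38 FPKM in mock, and at 24 h it was 245.28 to 279.19 FPKM in As(V) and 771.48 to 801.09 FPKM in mock. The summed levels of 7 endodermis, 3 stele, 3 root cap genes and 1 cortex gene also lay lower in As(V) at each time. The sum of 3 genes of dividing cells, like the other sums on the deposited scale only, was 51.41 to 53.43 FPKM in As(V) and 53.24 to 61.38 FPKM in mock at 1.5 h. At 6 h it was 66.02 to 72.12 FPKM in As(V) and 71.95 to 74.06 FPKM in mock, with overlap at both times on that scale. At 24 h it was 44.13 to 49.39 FPKM in As(V) and 57.53 to 83.76 FPKM in mock, without overlap. Of these 3 genes KN and CYCB1;1 were lower at each time as deposited, while PCNA1, a replication factor, was higher (0.66, 1.01 and 0.40 on the log2 scale at 1.5, 6 and 24 h, limma, adjusted p = 0.003, 3.9e-05 and 0.019) but not with library totals at 1.5 h (0.06) and 6 h (-0.17). Of 6 shoot genes, GL1 was at 0 in both libraries of every group but As(V) at 24 h. Their sum was 62.35 to 235.37 FPKM in As(V) and 102.19 to 190.29 FPKM in mock at 1.5 h, 83.08 to 83.6 FPKM in As(V) and 93.22 to 98.5 FPKM in mock at 6 h, and 40.91 to 52.08 FPKM in As(V) and 98.39 to 114.95 FPKM in mock at 24 h. At 24 h the photosynthesis genes LHCB1.3 (-1.95, adjusted p = 0.025) and PETE2 (-1.22, adjusted p = 0.047; 0.065 with library totals) were lower. In bulk samples, fewer cells of a type and less RNA per cell cannot be told apart. The part of these shifts in the results below was not tested.

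In mock roots ANL2 had the highest level of the 8 genes at every time, and GL2 came next. ANL2 averaged 10.9 ± 0.811 FPKM at 1.5 h, 11.1 ± 0.636 at 6 h and 7.09 ± 0.075 at 24 h (SD, n = 2 each), and GL2 averaged 6.10 ± 0.714, 9.30 ± 0.513 and 6.15 ± 0.425 FPKM. The libraries of these genes did not overlap at any time. PDF2, ATML1, HDG1 and HDG11 held the middle, with group means from 0.877 FPKM (HDG11 at 24 h) to 2.90 FPKM (PDF2 at 6 h). HDG2 and HDG12 were lowest, with means from 0.503 to 0.930 FPKM, and their libraries overlapped at 1.5 and 24 h. In As(V) roots ANL2 stayed first at every time, while GL2 shared the next places with ATML1 and HDG1 at 1.5 h, where the libraries of neighbours in the order overlapped. In As(V) HDG11 ranked in the third place at 6 and 24 h, with libraries that overlapped those of ATML1 at 6 h.

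**Figure D1:**
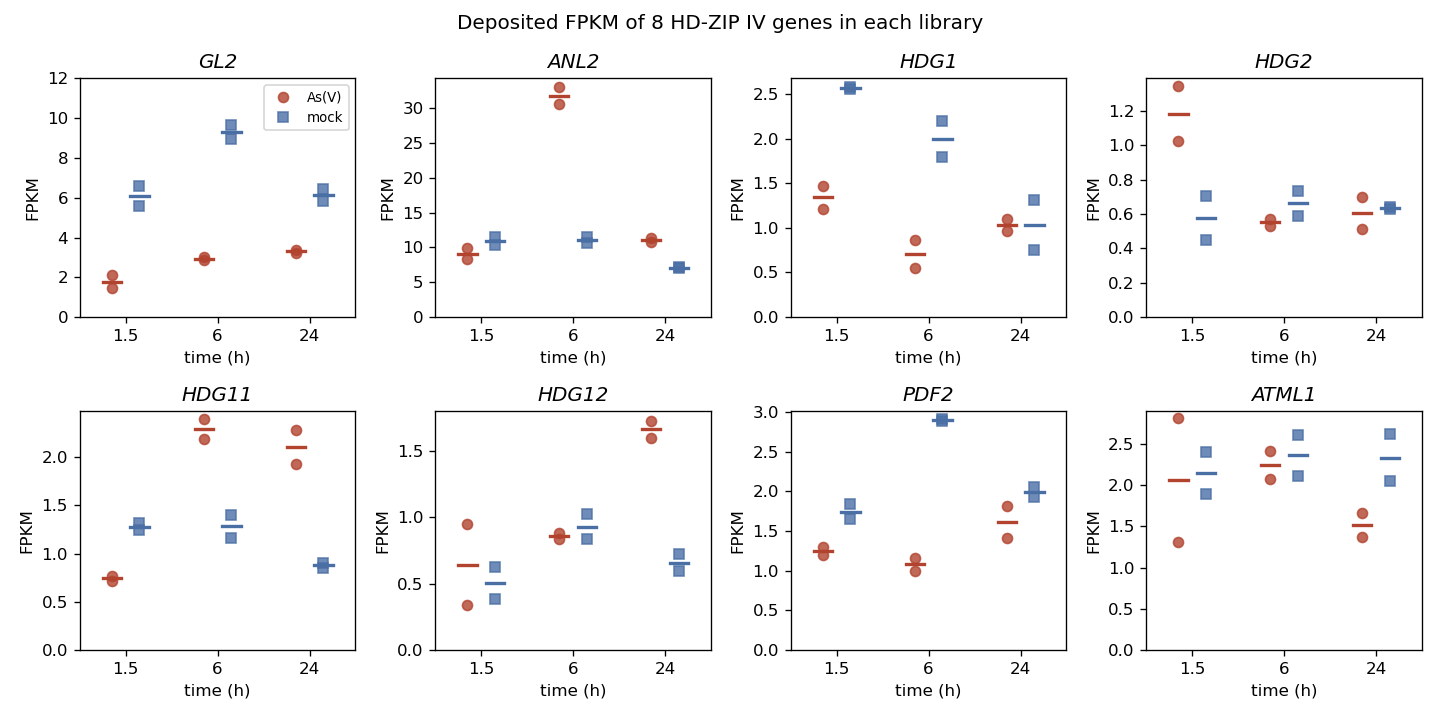
Deposited FPKM (y axis, each panel on its own scale from 0) of the 8 HD-ZIP IV genes at 1.5, 6 and 24 h (x axis). Points are libraries of As(V) roots (circles, left) and mock roots (squares, right), and bars are means of 2; GL2 lay lower in As(V) at all 3 times, and ANL2 stood at 30.6 and 33.0 FPKM in As(V) at 6 h.

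GL2, which keeps non-hair cells hairless, was lower in As(V) roots than in mock roots at all 3 times. At 1.5 h its level was 2.1 and 1.47 FPKM in As(V), against 5.60 and 6.61 FPKM in mock, a log2 fold change of -1.36 ± 0.16 (SE; limma, adjusted p = 1.9e-05). After 6 h it was 3.02 and 2.87 FPKM in As(V), against 8.93 and 9.66 FPKM in mock, with a log2 fold change of -1.39 ± 0.14 (adjusted p = 3.6e-06). At 24 h it was 3.24 and 3.39 FPKM in As(V), against 5.85 and 6.45 FPKM in mock, with a log2 fold change of -0.73 ± 0.10 (adjusted p = 9.5e-05). The groups did not overlap at any time, and the difference at 24 h was smaller than at 6 h by the test of that difference (0.66 ± 0.17 on the log2 scale, adjusted p = 0.0065). With library totals that difference was 1.62 (adjusted p = 4.6e-06), where the median of all genes was 0.99. Behind these values stood an estimated 36.3 to 56.5 reads per library in As(V) at 1.5 and 6 h and 222.1 to 476.8 in mock at those times. A rank within the library needs no scaling: among the 19850 genes tested GL2 stood at percentiles 26.2 and 25.8 in As(V) and 42.3 and 44.8 in mock at 6 h. The fall of GL2 passed the threshold in each of 22 alternatives at each time, with log2 changes from -1.81 to -1.19 at 1.5 h, from -2.29 to -1.3 at 6 h and from -0.89 to -0.64 at 24 h. In mock roots the level of GL2 was higher at 6 h than at 1.5 h (0.54 ± 0.09, adjusted p = 0.0018) and lower at 24 h than at 6 h (-0.53 ± 0.09, adjusted p = 0.0013), while in As(V) roots the means were 1.78, 2.94 and 3.32 FPKM at 1.5, 6 and 24 h.

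ANL2, named for its role in anthocyanin accumulation and also needed for the normal cell pattern of the root, moved the other way at 6 and 24 h. At 6 h its level was 30.6 and 33.0 FPKM in As(V), against 11.5 and 10.6 FPKM in mock, a log2 fold change of 1.45 ± 0.08 (limma, adjusted p = 1.6e-08). At 24 h it was 10.8 and 11.3 FPKM in As(V), against 7.14 and 7.03 FPKM in mock, with a log2 fold change of 0.58 ± 0.09 (adjusted p = 0.00013). At 1.5 h it was 8.28 and 9.92 FPKM in As(V), against 10.4 and 11.5 FPKM in mock, with a log2 fold change of -0.24 ± 0.10 (adjusted p = 0.042). The groups did not overlap at any time, but the small difference at 1.5 h missed the threshold in 10 of 22 alternatives, among them median-of-ratios scaling (-0.18, adjusted p = 0.11), and was -0.13 without replicate 1 of As(V) at 1.5 h and -0.17 without replicate 2 of mock at 1.5 h. With library totals it was -0.81 (adjusted p = 1.8e-05), against the median of all genes at -0.62. Leaving out any of the 4 libraries at 24 h left it at -0.24 with an adjusted p of 0.051 to 0.052.

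The size of the rise of ANL2 at 6 h depended on the scale. ANL2 had 572 and 649 whole reads in As(V) at 6 h and 517 and 522 in mock at 6 h. With library totals the log2 change at 6 h was 0.29 (adjusted p = 0.0056), against the median of all genes at -1.08, which is 1.37 above that median. At 24 h the reads were 552 and 466 in As(V) and 339 and 319 in mock, and the change was 0.69 with library totals. Within the library, ANL2 stood at percentiles 69.6 and 71.0 in As(V) and 49.8 and 47.6 in mock at 6 h. At 24 h it stood at percentiles 49.6 and 50.6 in As(V) and 35.8 and 35.0 in mock. The As(V) effect on ANL2 was larger at 6 h than at 1.5 h by 1.69 ± 0.12 on the log2 scale (adjusted p = 1.3e-06), and by 1.11 with library totals. It was smaller at 24 h than at 6 h by the deposited scale (-0.87 ± 0.12, adjusted p = 6.2e-05), but larger by 0.39 with library totals (adjusted p = 0.012). In mock roots ANL2 was lower at 24 h than at 6 h (-0.57 ± 0.09, adjusted p = 0.00081).

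HDG1, the closest relative of ANL2 by coding sequence and known for a role in cuticle formation, was lower in As(V) at 1.5 and 6 h. Its level was 1.21 and 1.47 FPKM in As(V), against 2.56 and 2.58 FPKM in mock at 1.5 h, with a log2 fold change of -0.61 ± 0.18 (limma, adjusted p = 0.012). After 6 h it was 0.548 and 0.867 FPKM in As(V), against 2.20 and 1.80 FPKM in mock, with a log2 fold change of -0.81 ± 0.25 (adjusted p = 0.011). The groups did not overlap at these times, and the As(V) libraries at 6 h held only 9 and 15 reads of HDG1. At 24 h the libraries overlapped, at 1.09 and 0.967 FPKM in As(V) and 1.32 and 0.752 FPKM in mock, and the log2 change was 0.01 with a 95% interval from -0.399 to 0.42 (adjusted p = 0.97). The effect at 24 h exceeded that at 6 h by 0.82 ± 0.31 (adjusted p = 0.037), and 7 of 21 alternatives ended this call, with values from 0.62 to 1.51 over all of them; 6 of these left out a library at 6 h or 24 h. In mock roots HDG1 was lower at 24 h than at 6 h (-0.56 ± 0.16, adjusted p = 0.028), but this call was lost without replicate 1 of mock at 6 h (-0.47) and without replicate 2 of mock at 24 h (-0.37). The fall in As(V) at 1.5 h was lost without replicate 1 of As(V) at 1.5 h (-0.53, adjusted p = 0.081), and the fall at 6 h without replicate 1 of As(V) at 6 h (-0.68, adjusted p = 0.08).

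HDG11 and HDG12, paired factors that act in trichome branching, were higher in As(V) at 24 h. HDG11, which is also known for raising drought tolerance when overexpressed, had 1.93 and 2.29 FPKM in As(V), against 0.902 and 0.853 FPKM in mock at 24 h, with a log2 fold change of 0.72 ± 0.14 (limma, adjusted p = 0.00094). HDG12 had 1.73 and 1.60 FPKM in As(V), against 0.593 and 0.724 FPKM in mock at 24 h, with a log2 fold change of 0.69 ± 0.18 (adjusted p = 0.0054). Neither gene's groups overlapped at 24 h, and with library totals the changes were 0.85 for HDG11 and 0.82 for HDG12. HDG12 reached 1 FPKM in 3 libraries only, of which 2 were the As(V) libraries at 24 h, so it entered the test through the group where it was high; with no filter its adjusted p was 0.0026.

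At 6 h HDG11 passed the test and HDG12 did not; the difference between them was not tested at a single time. HDG11 had 2.18 and 2.39 FPKM in As(V), against 1.16 and 1.40 FPKM in mock, a log2 fold change of 0.53 ± 0.15 (limma, adjusted p = 0.008). The direction at 6 h rests on the deposited scaling, since the reads were 39 and 45 in As(V) and 50 and 66 in mock and the change with library totals was -0.22 (adjusted p = 0.18). Without replicate 2 of As(V) at 6 h it was 0.48 (adjusted p = 0.055). HDG12 had 0.880 and 0.835 FPKM in As(V), against 0.835 and 1.02 FPKM in mock at 6 h, with overlapping groups and a change of -0.06 (95% interval -0.563 to 0.45, adjusted p = 0.83), while library totals gave -0.57 (adjusted p = 0.041). With library totals the median of all genes at 6 h was -1.08, below the values of both HDG11 and HDG12. At 1.5 h HDG11 had 0.771 and 0.719 FPKM in As(V), against 1.24 and 1.32 FPKM in mock, without overlap, and its change of -0.38 ± 0.20 missed the threshold (adjusted p = 0.11). It passed in 5 of 21 alternatives, among them library totals (-0.68, adjusted p = 0.0084), where the median of all genes was -0.62. HDG12 at 1.5 h spread over 0.337 and 0.950 FPKM in As(V) and 0.622 and 0.384 FPKM in mock, from 7 to 21 reads (adjusted p = 0.75). The As(V) effect on HDG11 was larger at 6 h than at 1.5 h (0.91 ± 0.25, adjusted p = 0.012), which dropped to 0.46 with library totals (adjusted p = 0.14). The As(V) effect on HDG12 was larger at 24 h than at 6 h (0.74 ± 0.29, adjusted p = 0.044), a call ended by 11 of 21 alternatives, with changes from 0.67 to 1.42 over all of them; 10 of these left out a library at 1.5, 6 or 24 h.

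PDF2 and ATML1 specify the epidermis of the shoot together. At 6 h PDF2 passed the test and ATML1 did not, and the difference between them was not tested at a single time. PDF2 had 1.00 and 1.16 FPKM in As(V), against 2.91 and 2.89 FPKM in mock at 6 h, a log2 fold change of -0.91 ± 0.17 (limma, adjusted p = 0.00066). ATML1 had 2.07 and 2.41 FPKM in As(V), against 2.61 and 2.11 FPKM in mock at 6 h, with overlapping groups and a change of -0.04 (95% interval -0.503 to 0.414, adjusted p = 0.86). PDF2 was held by 18 and 22 reads in As(V) and 126 and 137 in mock at that time, and its change passed the threshold in each of 21 alternatives. For ATML1 library totals gave -0.83 at 6 h (adjusted p = 0.0026), against -1.55 for PDF2, so on that scale both were lower. The median of all genes was then -1.08, and relative to it ATML1 stood at 0.25 and PDF2 at -0.47.

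At the other times neither member of the pair passed the test as deposited. PDF2 had 1.19 and 1.3 FPKM in As(V), against 1.84 and 1.65 FPKM in mock at 1.5 h (-0.29 ± 0.16, adjusted p = 0.15), and 1.82 and 1.41 FPKM in As(V), against 2.06 and 1.92 FPKM in mock at 24 h (-0.19 ± 0.12, adjusted p = 0.19). Its groups did not overlap at either time, and with library totals it was lower at 1.5 h (-0.65, adjusted p = 0.0056), where the median of all genes was -0.62. ATML1 had 2.82 and 1.31 FPKM in As(V), against 2.40 and 1.90 FPKM in mock at 1.5 h (-0.08 ± 0.21, adjusted p = 0.76); the As(V) replicates lay on either side of both mock libraries, and the change was -0.44 without replicate 1 and 0.28 without replicate 2 of As(V) at 1.5 h. Library totals gave -0.49 for ATML1 at 1.5 h (adjusted p = 0.048), against the same median of -0.62. At 24 h ATML1 had 1.66 and 1.38 FPKM in As(V), against 2.62 and 2.05 FPKM in mock, without overlap (-0.40 ± 0.18, adjusted p = 0.075). The effect on PDF2 was smaller at 24 h than at 6 h (0.72 ± 0.21, adjusted p = 0.012; 0.66 and adjusted p = 0.057 without replicate 1 of As(V) at 6 h). In mock roots PDF2 was higher at 6 h than at 1.5 h (0.51 ± 0.12, adjusted p = 0.01) and lower at 24 h than at 6 h (-0.38 ± 0.11, adjusted p = 0.024). Leaving out replicate 2 of mock at 1.5 h (0.46) or of mock at 6 h (0.51) ended the first of these calls. Leaving out any 1 of the 4 mock libraries at 6 and 24 h ended the second, with values from -0.42 to -0.35.

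HDG2, which promotes stomatal differentiation in leaves, had 1.02 and 1.34 FPKM in As(V), against 0.705 and 0.451 FPKM in mock at 1.5 h. The groups did not overlap, and the log2 change was 0.47 ± 0.18 (limma, adjusted p = 0.041). HDG2 reached 1 FPKM only in those As(V) libraries, through which it entered the test, and the call was lost in 7 of 21 alternatives, library totals among them (0.18, adjusted p = 0.38). It was 0.36 without replicate 2 of As(V), 0.59 without replicate 1 of mock and 0.35 without replicate 2 of mock at 1.5 h, and 0.47 (adjusted p = 0.053) without either mock library at 6 h. The estimated reads were 32.8 and 43.6 in As(V) and 36.6 and 23.5 in mock. After 6 h it had 0.572 and 0.530 FPKM in As(V), against 0.737 and 0.589 FPKM in mock (adjusted p = 0.70), and at 24 h 0.513 and 0.699 FPKM in As(V), against 0.629 and 0.643 FPKM in mock (adjusted p = 0.87).

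**Figure D2:**
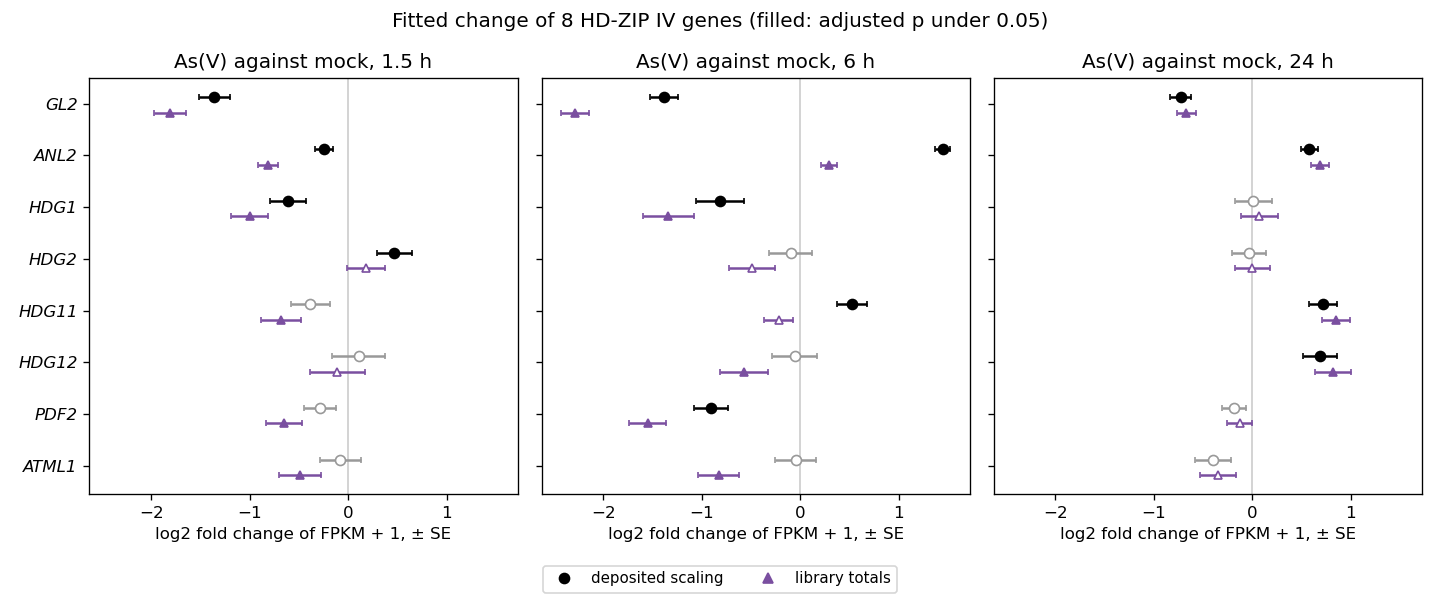
Log2 fold change of FPKM + 1 in As(V) against mock (x axis, ± SE) for the 8 genes at 1.5, 6 and 24 h. Circles are the deposited scaling and triangles library totals, filled where the adjusted p is under 0.05; GL2 lay below 0 at all times on both scales, and ANL2 at 6 h stood at 1.45 as deposited and 0.29 with library totals.

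At 1.5 h 4 of the 8 genes passed the test, 1 higher (HDG2) and 3 lower (GL2, HDG1, ANL2), where 63.6% of all genes tested did, 30% higher and 33.6% lower. HDG2 had entered the test only through the As(V) libraries at 1.5 h, where it was high; with no filter its adjusted p was 0.012. At 6 h 5 of 8 passed, 2 higher (ANL2, HDG11) and 3 lower (GL2, PDF2, HDG1), where 73.2% of all genes did, 35.7% higher and 37.5% lower. At 24 h 4 of 8 passed, 3 higher (HDG11, HDG12, ANL2) and 1 lower (GL2), where 65.6% of all genes did, 29.3% higher and 36.3% lower. HDG12 likewise entered mainly through the As(V) libraries at 24 h. The median log2 change of the 8 was -0.27, -0.08 and -0.01 at these times. Groups did not overlap for 6 of the 8 genes at each time, where 83.4%, 89.3% and 82.5% of all genes had no overlap. In number of calls the 8 genes did not stand above the background, and their directions were mixed. On the scale of library totals the members' counts were 0 higher and 6 lower at 1.5 h, where 15.5% of all genes were higher and 62.3% lower. At 6 h they were 1 higher and 5 lower, where 16.5% of all genes were higher and 69.7% lower, and at 24 h 3 higher and 1 lower, where 34.4% were higher and 32.5% lower. Between mock times, 2 of 8 passed as higher at 6 h than at 1.5 h, where 20.9% of all genes passed and 9.36% as higher. At 24 h 4 of 8 were lower than at 6 h, where 23.6% of all genes passed and 10.1% as lower. The As(V) effect differed between 1.5 and 6 h for 2 of 8, both higher at 6 h (43.7% of all genes, 26.2% higher and 17.6% lower). With library totals the counts were 1 higher (ANL2) and 1 lower (PDF2, -0.90, adjusted p = 0.012), where 13.5% of all genes were higher and 39.5% lower. It differed between 6 and 24 h for 5 of 8, of which 4 were higher and 1 lower at 24 h (62% of all genes, 26.7% higher and 35.3% lower). With library totals 6 were higher and 0 lower, where 62.7% of all genes were higher and 13.3% lower.

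Shares within a library do not move with the scaling. Over the 8 genes, the share of ANL2 was larger and that of GL2 smaller in As(V) than in mock at each time. ANL2 took 46.7% and 53.7% of the summed FPKM of the 8 genes in As(V) and 40.9% and 43.6% in mock at 1.5 h. After 6 h it took 74.88% and 74.89% in As(V), against 37.2% and 35.3% in mock. By 24 h it took 47.5% and 49.1% in As(V), against 33.8% and 34.4% in mock. GL2 took 11.8% and 7.94% in As(V), against 22.11% and 25.04% in mock at 1.5 h. After 6 h the share of GL2 was 7.38% and 6.51% in As(V), against 28.9% and 32.1% in mock. By 24 h it was 14.2% and 14.7% in As(V), against 27.7% and 31.6% in mock. The mean difference over the 3 times was 20.25 percentage points for ANL2 and -17.49 for GL2. Each had an exact permutation p of 0.00926, two-sided, the smallest that arrangements of the libraries within times can give, and an adjusted p of 0.037 over the 8 genes. At a single time the smallest possible exact p is 0.333, so no share was tested there. The shares of HDG1 (-2.63 points) and PDF2 (-3.12 points) had an adjusted exact p of 0.0741, and for HDG2, HDG11, HDG12 and ATML1 it was 0.193 to 0.519. Over the sum of all 16 genes of the family the mean difference was 17.76 points for ANL2 (exact p = 0.0278, adjusted p = 0.0556 over the 8 genes) and -15.9 for GL2 (exact p = 0.00926, adjusted p = 0.037). Of 16 genes, ANL2 took 38.5% and 43.2% in As(V), against 38.7% and 40.4% in mock at 1.5 h, with overlap, and its groups did not overlap at 6 and 24 h. PDF2, at -2.95 points of 16, had an exact p of 0.00926 and an adjusted p of 0.037. Shares add to a whole, so the gain of ANL2 lowers the others by construction. As deposited, the sum of the 8 genes was 17.7 and 18.5 FPKM in As(V), against 25.3 and 26.4 in mock at 1.5 h. At 6 h it was 40.9 and 44.1 in As(V), against 30.9 and 30.1 in mock. At 24 h it was 22.8 and 23.1 in As(V), against 21.1 and 20.4 in mock. Unlike shares, these sums move with the scaling, and they were not computed with library totals. At 6 h the library size behind the scaling was 0.445 and 0.460 of the reads in As(V), against 1.047 and 1.051 in mock. The direction of the sum at 6 h therefore rests on the deposited scaling.

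**Figure D3:**
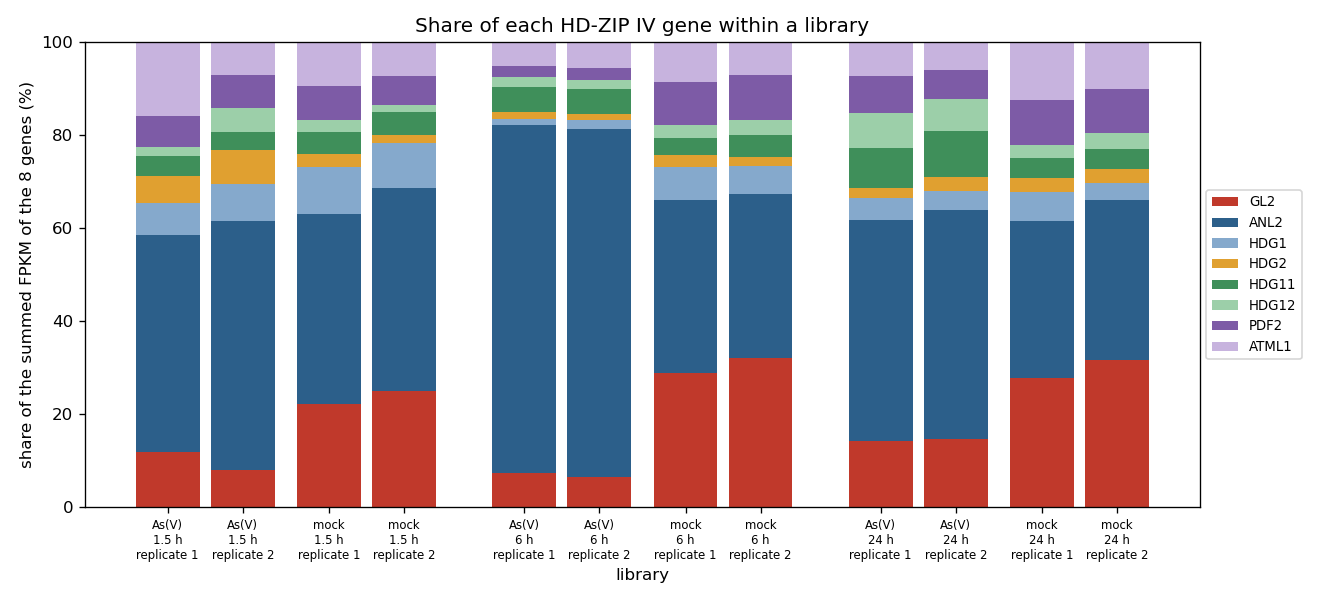
Share of each of the 8 genes in their summed FPKM (y axis, %) in each of the 12 libraries (x axis), As(V) left of mock at each time. ANL2 fills 74.88% and 74.89% of the bars of As(V) at 6 h, and GL2 takes less of every As(V) bar than of the mock bars of the same time.

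The log2 ratio of ANL2 to GL2 within a library, on FPKM + 1, which moves slightly with the scaling, was 1.58 and 2.15 in As(V), against 0.78 and 0.72 in mock at 1.5 h. After 6 h it was 2.98 and 3.14 in As(V), against 0.33 and 0.12 in mock. By 24 h it was 1.48 and 1.49 in As(V), against 0.25 and 0.11 in mock. Every As(V) library lay above every mock library. The mean difference was 1.75 (exact permutation p = 0.00926, adjusted p = 0.0185 over 4 ratios) and 2.04 with a pseudocount of 0.1. ANL2 also parted from its closest relative: the log2 ratio of ANL2 to HDG1 averaged 2.11 in As(V) and 1.74 in mock at 1.5 h, 4.27 in As(V) and 2.01 in mock at 6 h, and 2.57 in As(V) and 2.00 in mock at 24 h. Its mean difference was 1.07 (exact permutation p = 0.00926, adjusted p = 0.0185). The ratios between closest relatives were added after the data were seen, so this p-value is descriptive only. HDG1 lay at 0.548 to 2.58 FPKM, so the ratio of ANL2 to HDG1 depends more on the added 1 than that of ANL2 to GL2. The ratio of PDF2 to ATML1 differed by -0.20, -0.86 and 0.20 at the 3 times, a mean of -0.29 (exact permutation p = 0.167, adjusted p = 0.222). The ratio of HDG11 to HDG12 differed by -0.49, 0.58 and 0.04, a mean of 0.04 (exact permutation p = 0.852). Differences that change sign between times are averaged out by this test.

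**Figure D4:**
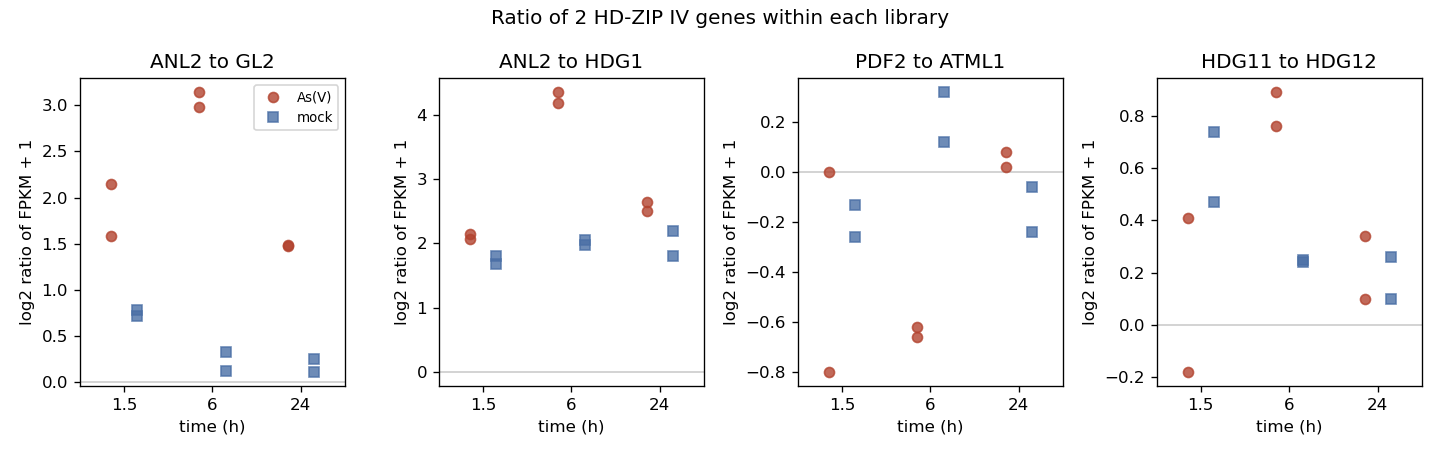
Log2 ratio of FPKM + 1 (y axis) for 4 pairs of HD-ZIP IV genes in each library at 1.5, 6 and 24 h (x axis), As(V) as circles on the left and mock as squares on the right. The ratio of ANL2 to GL2 lay between 1.48 and 3.14 in As(V) libraries and between 0.11 and 0.78 in mock libraries.

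Of the other 8 genes of the family, HDG3, HDG4, HDG5, FWA, HDG9 and HDG10 never exceeded 0.0821 FPKM, were listed at 0 in 8 to 11 of 12 libraries and were not tested. HDG8 changed direction over time. It reached 1 FPKM in 6 libraries only, those of As(V) at 1.5 and 6 h and of mock at 24 h. HDG8 thus entered the test through the groups where it was high. It had 2.01 and 2.72 FPKM in As(V), against 0.318 and 0.282 FPKM in mock at 1.5 h, a log2 change of 1.36 ± 0.26 (limma, adjusted p = 0.0009). After 6 h it had 2.1 and 1.49 FPKM in As(V), against 0.0311 and 0.0568 FPKM in mock, on 28 and 21 reads in As(V) and 1 and 2 in mock (1.41 ± 0.42, adjusted p = 0.01). With library totals the change of HDG8 was 1.05 at 1.5 h (adjusted p = 0.0034), 0.89 at 6 h (adjusted p = 0.064) and -1.57 at 24 h (adjusted p = 0.00016). At 24 h it had 0.247 and 0.306 FPKM in As(V), against 2.62 and 2.37 FPKM in mock (-1.46 ± 0.25, adjusted p = 0.00033). In mock roots themselves HDG8 was higher at 24 h than at 6 h (1.74 ± 0.40, adjusted p = 0.0096). The As(V) effect differed between 6 and 24 h (-2.87 ± 0.49, adjusted p = 0.00037). HDG7 was lower in As(V) at 6 h, with 0.695 and 0.495 FPKM in As(V), against 1.44 and 2.21 FPKM in mock (-0.82 ± 0.31, adjusted p = 0.033), on 8 and 6 reads in As(V), and was not called at 1.5 and 24 h.

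**Figure D5:**
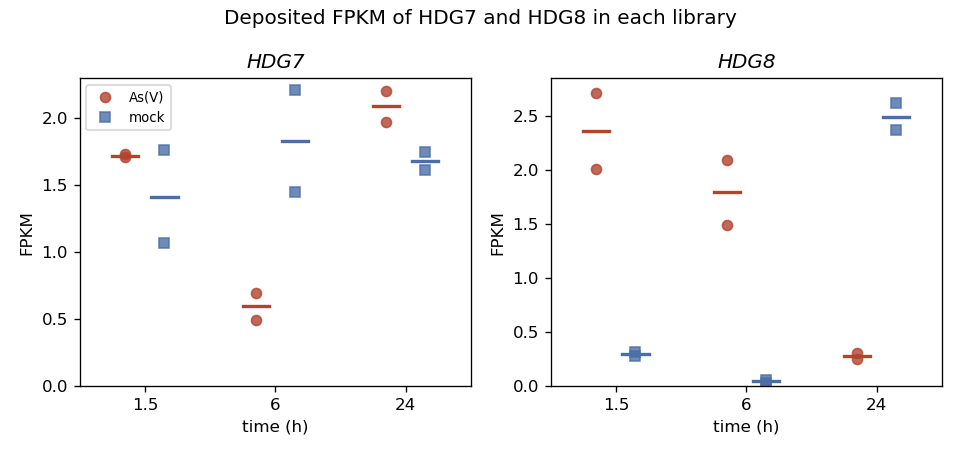
Deposited FPKM (y axis) of HDG7 and HDG8 at 1.5, 6 and 24 h (x axis), with As(V) libraries as circles on the left, mock libraries as squares on the right and bars for means of 2. HDG8 as deposited lay above mock at 1.5 and 6 h, where library totals gave an adjusted p of 0.064 at 6 h, and below mock at 24 h.

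Genes that act upstream of GL2 in the epidermis were set beside it. They are the MYB-bHLH-WD40 activators, the WRKY factor TTG2, the single-repeat MYB inhibitors and the receptor kinase SCM, a list of 13 of which 11 were tested. At 1.5 h 0 passed as higher and 4 as lower, at 6 h 2 as higher and 5 as lower, and at 24 h 1 as higher and 5 as lower, with median log2 changes of -0.02, -0.37 and -0.43. Over all genes tested 30%, 35.7% and 29.3% were higher and 33.6%, 37.5% and 36.3% lower at these times. MYC1, a bHLH partner of the activator complex, had 0.998 and 1.59 FPKM in As(V), against 5.68 and 4.08 FPKM in mock at 1.5 h (-1.36 ± 0.28, limma, adjusted p = 0.0013). At 24 h MYC1 had 2.24 and 2.09 FPKM in As(V), against 11.6 and 9.64 FPKM in mock (-1.87 ± 0.17, adjusted p = 2.7e-06). SCM, which relays position to the epidermis, had 1.51 and 2.01 FPKM in As(V), against 11.1 and 11.1 FPKM in mock at 6 h (-2.14 ± 0.20, adjusted p = 1.9e-06). ETC3, an inhibitor, had 4.13 and 6.72 FPKM in As(V), against 38.2 and 32.1 FPKM in mock at 24 h (-2.54 ± 0.27, adjusted p = 1.1e-05). The higher calls, named after their values were seen, were the WD40 protein TTG1 at 6 h and TTG2 at 6 and 24 h. TTG1 had 31.2 and 36.7 FPKM in As(V), against 18.2 and 21.3 FPKM in mock at 6 h (0.75 ± 0.11, adjusted p = 9.6e-05). TTG2 had 5.43 and 4.92 FPKM in As(V), against 3.63 and 3.05 FPKM in mock at 6 h (0.51 ± 0.14, adjusted p = 0.0073), and 3.18 and 3.87 FPKM in As(V), against 1.93 and 2.12 FPKM in mock at 24 h (0.57 ± 0.14, adjusted p = 0.0048). On library totals all 11 were lower at 6 h, TTG1 (-0.42) and TTG2 (-0.44) included, where 69.7% of all genes were, and TTG2 stayed higher at 24 h (0.69, adjusted p = 0.0012).

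Of 8 hair genes that GL2 is reported to repress, in roots where all 5 root hair markers were lower in As(V) at each time, 2 were higher and 3 lower at 1.5 h, 4 higher and 4 lower at 6 h, and 1 higher and 4 lower at 24 h, with median log2 changes of -0.37, -0.50 and -0.62, beside the same shares of all genes. LRL1, a bHLH factor of hair growth, had 326.7 and 323.7 FPKM in As(V), against 31.9 and 24.8 FPKM in mock at 6 h (3.49 ± 0.11, limma, adjusted p = 2.3e-10). RSL2, another such factor, had 0.926 and 1.27 FPKM in As(V), against 27.9 and 29.8 FPKM in mock at 24 h (-3.84 ± 0.23, adjusted p = 1.1e-07). RHD6, which starts hair development, had 2.88 and 2.03 FPKM in As(V), against 14.5 and 11.5 FPKM in mock at 1.5 h (-2.02 ± 0.24, adjusted p = 2.3e-05). As deposited this fall did not last: the effect on RHD6 at 6 h exceeded that at 1.5 h by 2.40 ± 0.28 (adjusted p = 3.8e-05). With median-of-ratios scaling RHD6 stood at 0.47 at 6 h (adjusted p = 0.0089). LRL2 was lower at 1.5, 6 and 24 h (-2.54 ± 0.19, -2.20 ± 0.20 and -1.04 ± 0.11, adjusted p = 6e-07, 1.7e-06 and 7.2e-06). By library totals the counts at 6 h were 1 up and 7 down, where 16.5% of all genes were up and 69.7% down, with LRL1 still up at 2.29 (adjusted p = 3.3e-09). RHD6 was among the 7 that were down, so on that scale its fall was still called at 6 h. Of 6 other reported GL2 targets 2 were tested, and both were lower at each time. The cell wall enzyme XTH17 had 1.14 and 3.24 FPKM in As(V), against 56.0 and 48.5 FPKM in mock at 6 h (-4.14 ± 0.47, adjusted p = 1e-05), and the cellulose synthase CESA5 had 21.1 and 24.8 FPKM in As(V), against 41.2 and 43.1 FPKM in mock (-0.85 ± 0.07, adjusted p = 1.1e-06).

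Of 11 genes of the L1 layer and the cuticle, 0 were higher and 6 lower at 1.5 h, and 2 were higher and 5 lower at both 6 and 24 h, with median log2 changes of -0.40, -0.34 and -0.40. The shares of all genes were 30%, 35.7% and 29.3% higher and 33.6%, 37.5% and 36.3% lower at 1.5, 6 and 24 h. PDF1, of the L1 layer, had 15.3 and 18.3 FPKM in As(V), against 32.4 and 32.6 FPKM in mock at 6 h (-0.92 ± 0.19, limma, adjusted p = 0.001). At 24 h PDF1 had 6.51 and 7.78 FPKM in As(V), against 27.8 and 19.1 FPKM in mock (-1.58 ± 0.19, adjusted p = 2.7e-05). LACS2, an enzyme of cutin synthesis, had 2.49 and 3.94 FPKM in As(V), against 18.3 and 17.8 FPKM in mock at 6 h (-2.19 ± 0.15, adjusted p = 1.3e-07). CER5, a wax transporter, had 7.35 and 6.90 FPKM in As(V), against 2.99 and 2.44 FPKM in mock at 6 h (1.14 ± 0.12, adjusted p = 8.1e-06). On library totals, 9 of the 11 passed as lower at 6 h and 0 as higher, where 69.7% of all genes were lower and 16.5% higher, with CER5 at 0.15 (adjusted p = 0.29).

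The genes whose pattern over the 12 libraries was most like that of GL2, by Pearson r on log2(FPKM + 1) among 14586 genes compared, were AT4G10265 (r = 0.988), AT4G10270 (0.981), AT5G04970 (0.971), Sadhu4-2 (0.969) and AT1G24160 (0.966). AT4G10265 averaged 5.28 FPKM in As(V) and 184.7 FPKM in mock at 6 h. For ANL2 they were AT5G62890 (r = 0.984), CYSD2 (0.981), AAE17 (0.980), ESC (0.980) and AT4G02360 (0.978). CYSD2 averaged 202.2 FPKM in As(V) and 32.5 FPKM in mock at 6 h. The libraries share their groups and their scaling, so r describes these libraries only. With library totals r was 0.976 to 0.989 for the 5 genes named with GL2 and 0.753 to 0.899 for the 5 named with ANL2.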

How the data were processed

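The authors deposited FPKM values for 33557 genes in 12 libraries. Per the submitters' processing notes, the tools were edgeR, HTSeq 0.6.0, STAR 2.5.4 and Trim Galore and the build was TAIR10; their roles are not given. Per the labels' protocols, stranded libraries were sequenced as single-end reads of 50 bases. The annotation version and the formula of the scaling are not given in the sources used here.

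The 8 genes and all lists were chosen with earlier results of these data known. For 15812 of 23156 genes with enough values (68.3%) values were whole multiples of the value of 1 read, within 0.05 reads, ANL2, HDG1, HDG7, HDG8, HDG11, HDG12 and PDF2 among them. For the others, GL2, HDG2 and ATML1 among them, reads were estimated. Reads per library rest on these estimates and on exon lengths. The relation of reads to exon length was set on 8182 genes with 1 transcript. Of these, 13.7% lay within 1% of the relation, so estimated reads are approximate.

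Genes with at least 1 FPKM and 10 estimated reads in at least 2 libraries were tested, 19850 in all. limma 3.58.1 (R 4.3.3) was fitted to log2(FPKM + 1) with 1 coefficient per group over all 12 libraries, voom weights from the reads and robust variances (residual degrees of freedom 6, median prior 4.75). Fold changes on this scale understate changes of low genes. P-values were adjusted by Benjamini-Hochberg over all genes tested, with a threshold of 0.05. The fit was also run on simulated data with few changed genes and scaling by the reads. That run does not show how the fit behaves where most genes are called or the scaling departs from the reads. Shares and ratios were tested by exact permutation within times, and adjusted over 8 genes or 4 ratios, and shares also over the sum of 16 genes. The 3 ratios between closest relatives by coding sequence, and leaving out libraries for shares and ratios, were added after the data were seen. Coding sequences were aligned with MAFFT 7.526 and loci and promoters read from RefSeq TAIR10.1, where a box was searched in the 250 bases before the gene start.

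Beside the 8 members in every comparison, the text names family members past the filter, at most the 3 called genes with the largest change per list and comparison, and the 5 genes most like GL2 and ANL2. Alternatives were 2 other scalings, pseudocounts of 0.5 and 0.1, no filter, a minimum of 5 FPKM, no weights, voom on the reads, the libraries of a comparison alone, each library left out, and a replicate block.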

Additional observations from a re-analysis of the deposited data

Results flagged for a closer look

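The As(V) effect differed between times in 7 tests of the difference itself (limma, adjusted p under 0.05), for 6 of the 8 genes. The ANL2 effect at 6 h exceeded that at 1.5 h by 1.69 on the log2 scale (adjusted p = 1.3e-06), with ANL2 higher in 2 of 2 As(V) libraries at 6 h and lower in 2 of 2 at 1.5 h. The HDG11 effect at 6 h exceeded that at 1.5 h by 0.91 (adjusted p = 0.012), and by 0.46 with library totals (adjusted p = 0.14). Between 6 and 24 h the GL2 effect differed by 0.66 (adjusted p = 0.0065), a smaller fall at 24 h, and the ANL2 effect by -0.87 (adjusted p = 6.2e-05), a smaller rise at 24 h as deposited. The HDG1 effect differed by 0.82 (adjusted p = 0.037), the HDG12 effect by 0.74 (adjusted p = 0.044) and the PDF2 effect by 0.72 (adjusted p = 0.012) between 6 and 24 h. With library totals the differences between 6 and 24 h were 1.62 for GL2 (adjusted p = 4.6e-06), 0.39 for ANL2 (adjusted p = 0.012), 1.41 for HDG1 (adjusted p = 0.0019), 1.39 for HDG12 (adjusted p = 0.0012) and 1.42 for PDF2 (adjusted p = 0.00016), where the median of all genes was 0.99. That of ANL2 between 1.5 and 6 h was then 1.11 (adjusted p = 3.9e-05), where the median of all genes was -0.42. The 2 comparisons between times share the As(V) and mock libraries at 6 h.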

How the results depend on the processing

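GL2 at all 3 times, ANL2 at 6 and 24 h, PDF2 at 6 h and HDG11 and HDG12 at 24 h kept their direction and passed the threshold in every alternative that gave a value. With library totals the log2 change of HDG11 at 6 h was -0.22, that of HDG12 at 1.5 h -0.11, that of HDG2 at 24 h 0.00 (also 0.00 with median-of-ratios scaling) and the ANL2 effect at 24 h minus that at 6 h was 0.39. ATML1 at 6 h was 0.02 with median-of-ratios scaling. The causes were not tested. Without each library in turn, values ranged from -0.16 to 0.38 for HDG12 at 1.5 h, from -0.44 to 0.28 for ATML1 at 1.5 h, from -0.12 to 0.02 for HDG12 and from -0.15 to 0.06 for ATML1 at 6 h, and from -0.19 to 0.22 for HDG1 and from -0.11 to 0.05 for HDG2 at 24 h. The mean difference in share ranged from -3.43 to -2.82 points for PDF2 and from -2.77 to 0.17 for ATML1, and the ratio of HDG11 to HDG12 from -0.05 to 0.14 (-0.02 with a pseudocount of 0.1).

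With at least 5 FPKM required, only GL2 and ANL2 were tested. Members called were then 2 at each of 1.5, 6 and 24 h, 1 from mock 1.5 to 6 h, 2 from mock 6 to 24 h, 1 for the effect at 6 h minus 1.5 h and 2 for that at 24 h minus 6 h. Fits on the libraries of the comparison alone called 2 members at 1.5 h and 2 from mock 6 to 24 h. For the effect at 6 h minus 1.5 h, 4 members were called with a pseudocount of 0.1, with no filter, without weights and with voom on the reads, against 2. Without each library in turn, members called were 2 to 4 at 1.5 h, 1 to 2 and 2 to 4 between mock times, and 2 to 5 for the effect at 24 h minus 6 h. Genes called were 2005 to 4455 from mock 1.5 to 6 h and 2584 to 4645 from mock 6 to 24 h. Where 1 library is left, it is assumed to vary like the other groups. With library totals 1 of the 5 genes most like GL2 and 0 of the 5 most like ANL2 were the same.

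Replicate numbers showed little sign of pairing: same-numbered libraries deviated together with r from -0.04 to 0.14 over 15 pairs of groups. Of these, 1 exceeded the limit of 0.1 set for pairing, As(V) with mock at 24 h (r = 0.14). With the replicate number as a block, genes called were 12749 at 1.5 h, 14620 at 6 h and 13092 at 24 h. ATML1 at 24 h passed (-0.41, adjusted p = 0.027) and the HDG12 effect at 24 h minus 6 h did not (0.74, adjusted p = 0.053), and no other reported value for the members changed its call. Depth limits the low members: HDG1, HDG2, HDG11, HDG12 and PDF2 had 7 to 45 reads in each As(V) library at 1.5 and 6 h.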

Other observations

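Genes of the other classes of the HD-ZIP family were set beside class IV. Over all genes tested 30%, 35.7% and 29.3% were higher and 33.6%, 37.5% and 36.3% lower in As(V) at 1.5, 6 and 24 h as deposited, and with library totals 15.5%, 16.5% and 34.4% were higher and 62.3%, 69.7% and 32.5% lower. All 5 class III genes, which act in vascular and organ polarity, were lower in As(V) at 1.5 h, with a median log2 change of -0.91, and at 6 h 4 were lower and 1 higher (5 lower with library totals). At 24 h 4 were lower, and 2 with library totals. ATHB8, a class III gene of vascular development, had 5.75 and 4.25 FPKM in As(V), against 15.2 and 18.1 FPKM in mock at 1.5 h (-1.56 ± 0.14, limma, adjusted p = 2.7e-06). At 6 h ATHB8 had 3.36 and 3.24 FPKM in As(V), against 15.2 and 14.1 FPKM in mock (-1.86 ± 0.18, adjusted p = 2.8e-06).

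Of the 10 class II genes, known for shade and auxin responses, 6 were higher and 1 lower at 1.5 h, 5 higher and 0 lower at 6 h, and 0 higher and 3 lower at 24 h. HAT22 had 296.4 and 238.0 FPKM in As(V), against 30.1 and 31.95 FPKM in mock at 6 h (3.06 ± 0.14, limma, adjusted p = 6.6e-09). With library totals the counts of class II at 6 h were 2 higher and 5 lower, and HAT22 stood at 1.86 (adjusted p = 9.6e-08). Of 14 class I genes tested, 2 were higher and 7 lower at 1.5 h, 5 higher and 5 lower at 6 h, and 0 higher and 11 lower at 24 h. ATHB16 had 555.2 and 573.6 FPKM in As(V), against 126.2 and 128.5 FPKM in mock at 6 h (2.14 ± 0.09, adjusted p = 1.1e-09). With library totals 1 class I gene, ATHB16 (0.93, adjusted p = 5.1e-07), was higher and 10 were lower at 6 h.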
